A study of Mus musculus with 45 samples.

Results

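The genes described here encode the proteins of the cytosolic ribosome. They were chosen by their symbols alone, as every row named Rpl or Rps with a number (or Rplp, or Rpsa). Rows with -ps in the name (pseudogenes), the Rps6k kinases and Rik names were left out, while Rps4y2, a transcribed pseudogene in RefSeq, stayed in. This gave 81 genes of 15997 in the 3 deposited tables together, 48 of the large subunit and 33 of the small subunit, and 79 of them were in every table. There were 80 at E5.25 (without Rpl3l), 81 at E5.5 and 80 at E5.75 (without Rpl4, which stands there in a row joined with Snapc5). Other ribosomal protein genes fell outside the symbol rule because of their names, among them Fau, Gnb2l1 (Rack1) and rows joined with a small RNA or a neighbour, such as those of Rpl13a, Rpl30 and Rpl34.

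The study followed gene expression along the proximal-distal axis of untreated mouse embryos just after implantation, at 3 ages in days from mating (E5.25, then E5.5, then E5.75). Embryos were taken out of the decidua, the surrounding tissue of the mother, frozen and cut into numbered sections, from which tissue was cut out under the microscope with a laser and sequenced with Smart-seq2, a protocol for very small amounts of RNA. The section numbers came to 7 at E5.25, 9 at E5.5 and 17 at E5.75. At the last age, sections 6 and 7 each had a further library labelled VE, read here as visceral endoderm, the epithelium that covers the embryo, although the labels do not spell it out. No strain or genotype is given, and the labels do not say which end of the axis has section 1. As far as they say, each stage is 1 embryo, so the sections are positions and not replicates, and a test along them measures scatter around a line within that embryo. All levels are log2(FPKM + 1), a scale per transcript length and per library size on which a difference of 1 is a factor of 2. The depth of the libraries is unknown, since the tables hold no counts. In tissue sections, fewer cells and less RNA per cell cannot be told apart.

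A ribosome holds 1 copy of nearly every ribosomal protein, and a small subunit that reads the mRNA joins a large subunit that forms the peptide bond. Cells keep the output of these genes close to balanced, partly because many of their mRNAs begin with a run of pyrimidines, the TOP motif, through which mTOR and the RNA-binding protein Larp1 switch their translation together. Several ribosomal proteins have paralogues with a restricted pattern, such as Rpl10l and Rpl39l, best known from the testis, and Rpl3l, known from muscle. Rapidly growing tissues such as the early embryo are rich in these mRNAs.

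All 81 genes matched a RefSeq entry, 2 of them through an older symbol, and they lie on 19 chromosomes, with 4 on the X chromosome (Rpl10, Rpl36a, Rpl39 and Rps4x). Rps4y2 is listed by RefSeq as Rps4l, a transcribed pseudogene on chromosome 6. Of the members, 62 had a start region in the RefSeq promoter table (build GRCm38.p6). The base sequence around the start is shown for the genes that the results turn on, from 25 bases before to 20 bases after the annotated start, 5′ to 3′ on the strand of the gene. Capitals mark the longest run of C and T that reaches into the 10 bases on either side of the start. First come parent genes with 4 of the paralogues whose difference to the parent changed along section number with all sections; for Rpl10l it also did without sections 1 and 2.
Rps27, chr3:90213629-90213673, minus strand: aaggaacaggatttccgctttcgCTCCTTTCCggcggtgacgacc
Rps27l, chr9:66946061-66946105, plus strand: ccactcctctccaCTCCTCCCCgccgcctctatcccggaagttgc
Rpl22, chr4:152324411-152324455, plus strand: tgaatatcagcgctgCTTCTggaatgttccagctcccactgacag
Rpl22l1, chr3:28805483-28805527, plus strand: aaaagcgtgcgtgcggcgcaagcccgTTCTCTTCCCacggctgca
Rpl10, chrX:74270791-74270835, plus strand: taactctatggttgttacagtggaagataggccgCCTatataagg
Rpl10l, chr12:66284382-66284426, minus strand: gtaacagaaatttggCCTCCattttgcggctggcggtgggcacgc
Rpl36a, chrX:134585629-134585673, plus strand: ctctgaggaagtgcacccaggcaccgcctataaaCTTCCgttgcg
Rpl36al, chr12:69184048-69184092, minus strand: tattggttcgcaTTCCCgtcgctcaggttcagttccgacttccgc
Next come members whose level did not follow that of the others at E5.75.
Rplp2, chr7:141447626-141447670, plus strand: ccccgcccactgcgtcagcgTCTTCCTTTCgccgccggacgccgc
Rps12, chr10:23787190-23787234, minus strand: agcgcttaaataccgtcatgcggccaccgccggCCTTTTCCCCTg
Rpl38, chr11:114668555-114668599, plus strand: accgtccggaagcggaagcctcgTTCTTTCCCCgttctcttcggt
The run was 9 bases long in both Rps27 and Rps27l. It was 10 bases in Rpl22l1 against 5 in its parent Rpl22, and 3 in Rpl10 against 5 in Rpl10l.

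A run of at least 8 pyrimidines on the gene's own strand was found in 27 of the 62 members (43.55%). The share was 15.85% over 17492 protein-coding genes of the same table, 16.42% of those named in the expression tables, and 13.64% of 66 genes for mitochondrial ribosomal proteins. Where a gene has several annotated starts, the one with the longest run was taken, for members and for all other genes alike. The length of the run was unrelated to the level of the members in sections 3 to 8 of E5.75 (Spearman's rho 0.030 across 57 genes, which are not independent replicates). The median length of a member's coding transcripts did move with its level, with rho -0.41 across 75 genes. Short transcripts such as those of Rpl38 and Rpl41 stood high on this scale per length. Whether the division by length itself raised them was not tested. Annotated processed copies (names ending in -ps) exist for 57 members, 277 in all, and how reads shared with such copies were counted is not given in the sources used here.

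At E5.75 the members with the highest mean level over the 17 sections were Rplp1 (11.48), Rpl38 (11.46), Rps12 (11.39), Rplp2 (11.37), Rpl41 (11.29) and Rpl35 (10.77). Rplp1 and Rplp2 form the stalk of the large subunit that recruits elongation factors, and Rpl38 is known for its part in the translation of Hox mRNAs. The first 5 lie closer together than the range of each over the sections, so their order is not resolved. The lowest were Rpl10l (1.82), Rpl39l (2.31), Rpl7l1 (3.25) and Rps15a (5.01). Rpl3l was listed at 0 in every E5.75 column except section 8, where it reached 1.63. The order of the members was much alike in the 3 stages: across the 79 genes in every table, Spearman's rho of the mean levels was 0.88 between E5.25 and E5.5, 0.90 between E5.25 and E5.75 and 0.85 between E5.5 and E5.75, as a description across genes that share libraries and gene lengths.

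Sections 1 and 2 stood apart in all 3 stages. Without the row of the ribosomal RNA precursor Rn45s, the members made up 8.10% and 10.4% of the summed FPKM in sections 1 and 2 of E5.25, against 24.9% to 27.7% in the other sections. At E5.5 the shares were 5.92% and 15.3%, against 28.5% to 33.5%. At E5.75 they were 10.2% and 20.8%, against 23.3% to 30.7%. In E5.5 section 1, 30 of the 81 members were listed at 0, and so was Gapdh, a gene that every cell uses. In the same column Rn45s took 69.8% of the summed FPKM, and 2288 genes reached an FPKM of 1, against 4621 to 6467 from section 4 on. A 0 there can be a failed measurement, and the line fits, the paralogue slopes that passed and the list counts are therefore also given without sections 1 and 2. At E5.25, section 4 had the fewest genes at an FPKM of 1 (2046, against 2607 and 3374 in sections 1 and 2). Its member share was not low, and it stays in the fits without sections 1 and 2. The part of RNA quality or depth in the low levels of sections 1 and 2 was not tested.

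**Figure D1:**
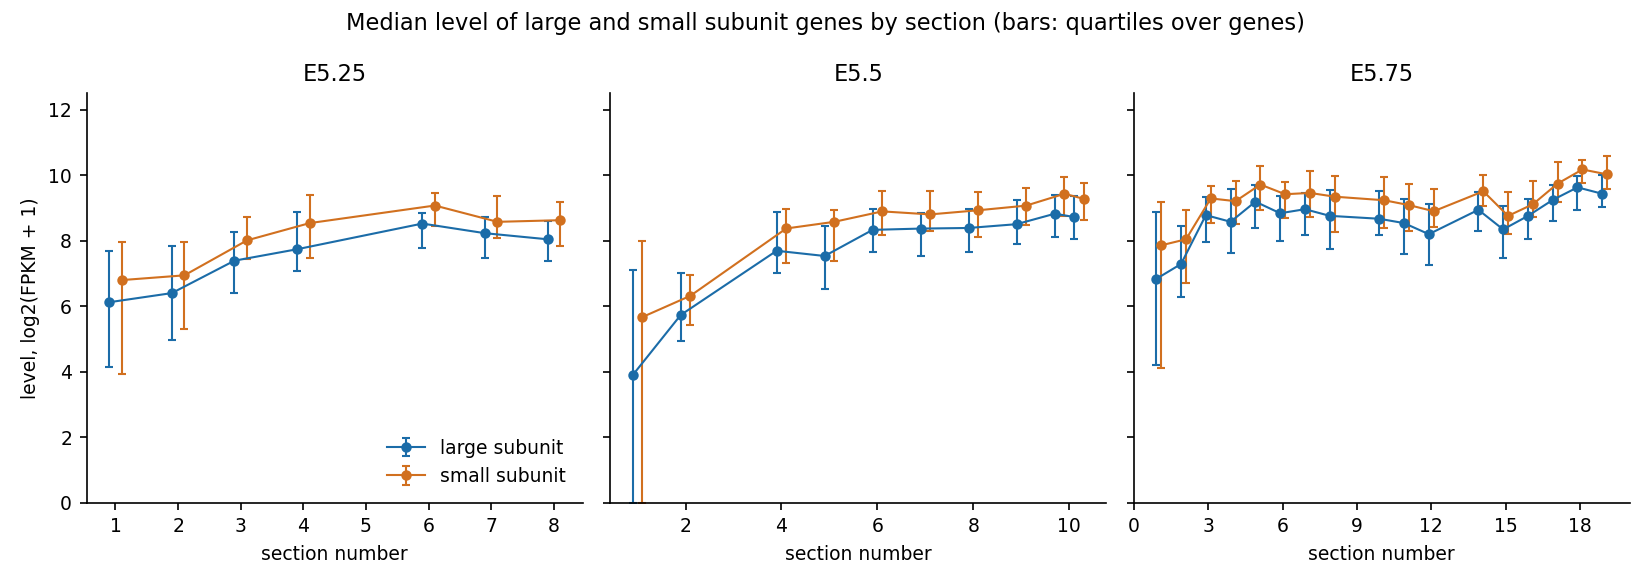
Median level, log2(FPKM + 1), of large and small subunit members (vertical axis) by section number (horizontal axis) at each stage, with bars from the lower to the upper quartile over genes; the 2 columns of E5.5 section 10 are drawn side by side. The small subunit median lies above the large subunit median in every section, and both are low in sections 1 and 2.

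The median level of small subunit members was higher than that of large subunit members in every section of every stage. The median level of large subunit members minus that of small subunit members had a median of -0.58 over the 7 sections of E5.25 (range -0.80 to -0.35), -0.57 over the 9 of E5.5 (range -1.77 to -0.43) and -0.56 over the 17 of E5.75 (range -1.02 to -0.36). The gap is given as a description with no test, over the same members in every section of a stage. Ribosomal protein genes outside the symbol rule are not in it, and the part of transcript length in it was not tested. The widest gap was in section 1 of E5.5, where the medians were 3.902 and 5.673. From section 3 on, the gap of E5.25 was -0.80 to -0.35, that of E5.5 -1.04 to -0.43 and that of E5.75 -0.70 to -0.36. Without the paralogues it was below 0 in every section too, but closer to 0 in some (-0.26 in section 19 of E5.75, against -0.59), with ranges of -0.63 to -0.26 at E5.25, -1.37 to -0.23 at E5.5 and -0.79 to -0.26 at E5.75. By means it was also below 0 throughout, and closest to 0 (-0.059) in section 1 of E5.25. The plot of subunit medians shows both along the section numbers.

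At E5.25 the median level of the members was 6.45 and 6.78 in sections 1 and 2 and between 7.65 and 8.67 in the other 5. A line in section number, scaled so that the change is the fitted rise between the first and last section, was fitted to every gene with limma. Of 79 members tested, 1 rose past a Benjamini-Hochberg adjusted p of 0.05 and 0 fell, where 0.378% of all 7148 genes tested rose and 0.028% fell. At an unadjusted p under 0.05, 30 members (38.0%) rose and 0 fell, beside 30.9% and 4.0% of all genes. The median change was 2.34 for the members and 1.45 for all genes. The gene that rose was Rps28, a short protein of the small subunit head, by 8.28 ± 1.81 (SE, adjusted p = 0.044 by limma). Rps28 was listed at 0 in section 1, stood at 4.05 in section 2 and lay between 9.75 and 10.4 in the other 5 sections. Without section 1 its change was 3.95 with an adjusted p of 0.092 (limma), so this call rests on section 1. The count of members that rose was 0 without section 1, 12 without section 2 and 10 without section 3. It was 8 without section 4 or section 8. Of all genes tested, 19 of 6827, 159 of 6760 and 381 of 6757 rose without section 1, 2 or 3. The figures were 736 of 7049 without section 4 and 86 of 6407 without section 8.

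Among the next largest changes at E5.25 were those of Rps27l (6.59), Rpl4 (5.77), Rpl29 (5.71) and Rps6 (5.41), the small subunit protein phosphorylated by S6 kinase, and none of them passed the test. The smallest were -0.97 for Rpsa, which also acts as a laminin receptor, -0.76 for Rpl36, -0.35 for Rps24, -0.25 for Rps15, 0.19 for Rps3 and 0.20 for Rpl13. Without sections 1 and 2 the median change of the members fell to 0.57, that of all genes was 1.16, and 0 members passed. At an unadjusted p under 0.05, 6 rose and 2 fell there (7.59% and 2.53%), beside 15.2% and 1.26% of all genes. The count of members that rose was 15 with a pseudocount of 0.1 and 16 with a filter at an FPKM of 5, beside 13.1% and 21.6% of all genes. It was 0 with quantile normalization and 0 when the number of genes detected entered as a covariate. In both of these fits, 0 of all 7148 genes rose.

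At E5.5 the rise along the section numbers was broad. Of 80 members tested, 58 rose and 0 fell past an adjusted p of 0.05 (limma), 33 of 47 large and 25 of 33 small subunit genes, where 28.3% of all 8251 genes tested rose and 2.61% fell. The median change was 3.59 for the members and 1.22 for all genes. The largest were those of Rps27l (9.71 ± 1.31 SE), a paralogue of Rps27 known as a target of p53, Rpl18 (9.27), Rpl22l1 (8.71), Rpl32 (7.72), Rpl7 (7.61) and Rps28 (7.57). Rpsa was the 1 member whose fitted change was below 0, at -1.17 ± 0.62 with an adjusted p of 0.15. The next smallest were those of Rpl10l (0.43), Rplp1 (0.57), Rps12 (0.77), Rpl10a (0.78) and Rps25 (0.98), and none of these passed the test.

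The largest of these changes were in genes listed at 0 in section 1. Rps27l was at 0 in sections 1 and 2, at 6.40 and 5.46 in sections 4 and 5, and between 7.81 and 9.46 from section 6 on. Rpl18 was at 0 in sections 1 and 2 and between 6.47 and 9.07 afterwards. Rpl32 was at 0 in section 1, at 5.23 in section 2 and between 8.56 and 9.96 afterwards. In each of these 3 genes, sections 1 and 2 lie below all others with no overlap.

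Without sections 1 and 2 of E5.5, 20 members rose and 0 fell, 8 large and 12 small subunit genes, where 3.71% of all 7755 genes tested rose and 0.271% fell. The median change was then 0.97 for the members and 0.70 for all genes. The largest called there was Rps27l, at 3.21 with an adjusted p of 0.029 (limma). Rps27, its parent and a protein of the small subunit, changed by 1.66 (adjusted p = 0.024), Rpl23a by 1.93 (adjusted p = 0.022) and Rps18 by 1.82 (adjusted p = 0.026). Rps27 stood at 9.51, 10.1, 11.1, 10.7, 10.7 and 11.2 in sections 4 to 9 and at 11.6 and 11.4 in the 2 columns of section 10. When the number of genes detected entered as a covariate, 0 members passed, as did 0 of all 8251 genes. The median change was 0.66 for the members in that fit and 0.40 for all genes. With all sections rescaled to a common sum without Rn45s, 35 members rose, beside 1273 of all 8491 genes. With quantile normalization 29 members rose and 1 fell, beside 578 and 509 of all 8251 genes. The 1 that fell was Rpsa (-2.15, adjusted p = 0.046 by limma).

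Rpsa ran against the others at E5.5. It stood at 8.90, 9.22 and 9.16 in sections 1, 2 and 4 and between 7.90 and 8.69 from section 5 on, so its first 3 sections lie above all later ones. At E5.75 it was highest in section 1 (10.35) and stood between 8.63 and 9.41 from section 3 on. Over sections from 3 on, its level correlated with the median of the members by r = -0.33 at E5.25, -0.80 at E5.5 and 0.80 at E5.75, over 5, 7 and 15 sections of 1 embryo each; a difference between stages was not tested.

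At E5.75, 22 of 79 members rose and 1 fell past an adjusted p of 0.05 (limma), 11 large and 11 small subunit genes among those that rose, where 18.9% of all 11149 genes tested rose and 2.07% fell. The median change was 1.31 for the members and 0.80 for all genes. Among the largest were those of Rpl22l1 (4.94 ± 1.53 SE), Rpl36al (3.78), Rps9 (3.52), Rpl29 (3.28) and Rpl19 (3.25). The member that fell was Rpl10l, with a change of -3.04 ± 1.07 SE (adjusted p = 0.045). Small changes that did not pass were those of Rpl39l (-0.73), Rps15 (-0.24), Rpl10a (-0.14), Rpsa (-0.05) and Rpl35 (0.01).

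The count at E5.75 rested on a few sections. It was 14 without section 1, 8 without section 2, 10 without section 17, 8 without section 18 and 10 without section 19. Of all genes tested, 1463 of 11060 rose without section 1 and 1449 of 11109 without section 2. For sections 17, 18 and 19 the counts of all genes were 1706 of 11032, 1587 of 11004 and 2050 of 11037. Without sections 1 and 2 together, 2 members rose and 2 fell, where 9.38% of all 11016 genes tested rose and 3.4% fell, and the median change was 0.41 for the members and 0.43 for all genes. Those that rose were Rps27 (1.51 ± 0.33, adjusted p = 0.0042) and Rpl9 (1.28, adjusted p = 0.033). Those that fell were Rpl10l (-4.23, adjusted p = 0.0042) and Rps12 (-0.82 ± 0.24, adjusted p = 0.029). With all sections, the fitted change of Rps12 was 0.14 (adjusted p = 0.86).

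A line does not describe the course of the members at E5.75 well. Their median level was between 8.91 and 9.32 in sections 3 to 8, between 8.55 and 9.18 in sections 10 to 16 and between 9.41 and 9.83 in sections 17 to 19. These spans were chosen after the values were seen, so the counts are a description. In 46 of 79 members all 3 of sections 17 to 19 stood above every one of sections 10 to 16, 23 of 46 large and 23 of 33 small subunit genes, where 5.74% of all 11149 genes tested did so. In 0 members did they stand below, where 1.7% of all genes did. Sections 3 to 8 lay wholly above sections 10 to 16 in 0 members (1.7% of all genes) and wholly below in 0 (3.19% of all genes). The mean of sections 17 to 19 minus that of 10 to 16 had a median of 0.84 over the members and 0.07 over all genes, and it was above 0 in 73 of 79.

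**Figure D2:**
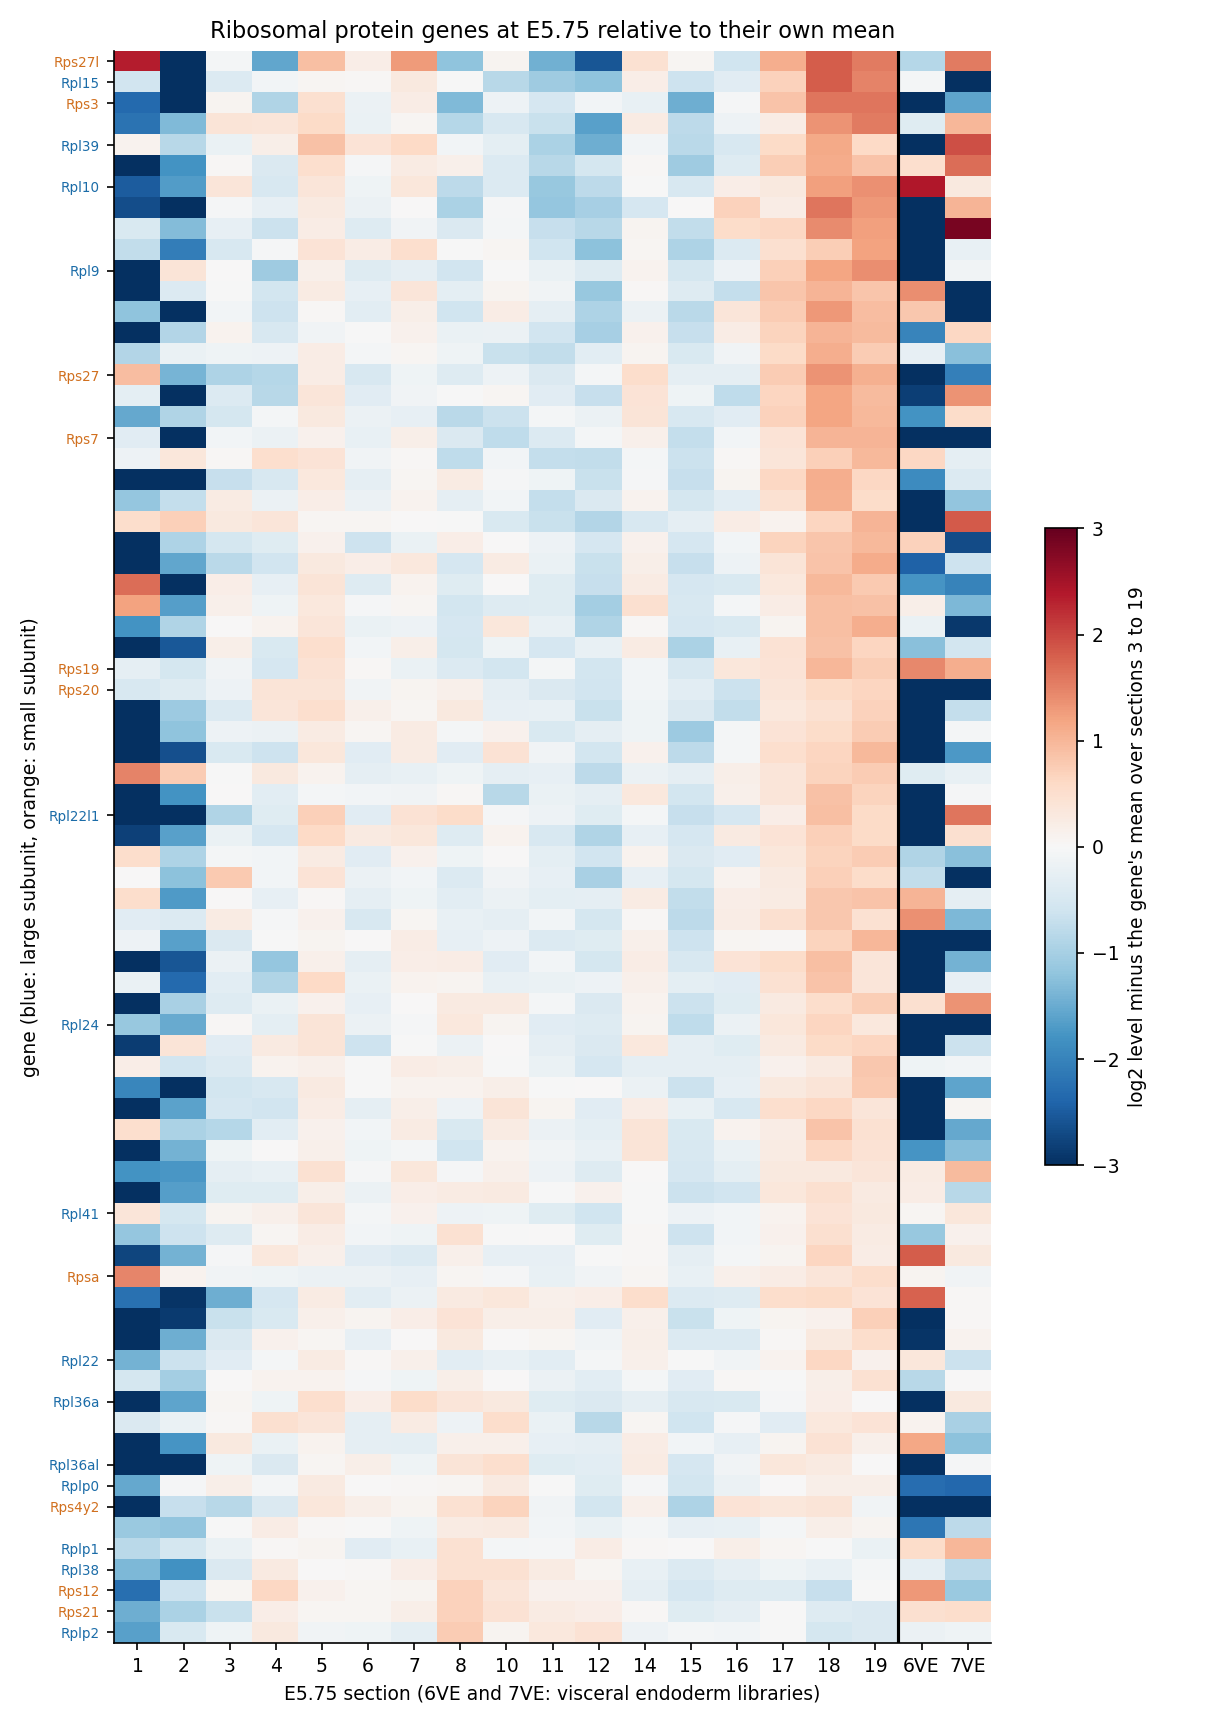
Level of each of 76 members with a mean of at least 4 at E5.75 (rows; some of the members that the text describes are named, large subunit in blue and small subunit in orange) in each column (sections 1 to 19, then the 2 VE libraries), as the log2 level minus the gene's own mean over sections 3 to 19; colours end at -3 and 3. Most rows are red in sections 17 to 19, the rows at the foot (Rplp2, Rps21, Rps12, Rpl38, Rplp1) are not, and sections 1 and 2 and the VE libraries are uneven.

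Among the largest late differences were those of Rps27l (2.16), Rpl15 (1.98), Rps3 (1.76) and Rpl39 (1.45). Rps3, a small subunit protein at the mRNA entry that also acts in DNA repair, stood between 4.98 and 6.40 in sections 10 to 16 and at 7.29, 8.06 and 8.03 in sections 17, 18 and 19. Rpl15 stood between 4.95 and 6.37 in the former and at 6.851, 7.996 and 7.651 in the latter. Rps27 stood between 9.83 and 10.8 and then at 11.03, 11.61 and 11.32. Rpl9 stood between 7.97 and 8.61 and then at 9.23, 9.68 and 9.89. In each of these 4 genes the 2 spans do not overlap.

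Other measures moved with these sections. The summed FPKM of all genes was 209997 to 235411 in sections 10 to 16 and 260995 to 285460 in sections 17 to 19. Rn45s took 5.43% to 14.8% of it in the former and 2.88% to 7.85% in the latter. When every section was rescaled to a common sum without Rn45s, the count of members fell from 46 to 25, with 5 below, and with quantile normalization to 14, with 5 below. The shares of all genes that stood above were then 2.91% and 3.67%, and the shares below were not computed. The median late difference of the members was 0.47 and 0.23 under these scalings, against -0.12 and -0.05 for all genes. Highly expressed genes shared the pattern in part. With the values as deposited, 26 of 132 other genes with a mean level of at least 7 (19.7%) stood above in all 3 late sections. Of the 69 members at such a level, 42 did so. With the common sum, 12 of those 132 genes (9.09%) and 22 of those 69 members did so. With quantile normalization the counts were 8 (6.06%) and 10.

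The 12 ectoplacental cone markers, genes of the trophoblast that forms the cap of the embryo, summed to 1642 to 2917 FPKM in sections 17 to 19, 343.6 to 1185 in sections 10 to 16 and 27.8 to 436.8 in sections 3 to 8. Epiblast markers, for the tissue that forms the embryo proper, summed to 484.5 to 818.0 FPKM in sections 3 to 8, 54.7 to 246.5 in sections 10 to 16 and 80.9 to 91.1 in sections 17 to 19. The 9 decidua markers in the table summed to 35.5 to 330.7 FPKM in the late span and 5.15 to 177.7 in the middle span. The part of trophoblast cells, maternal cells or scaling in the late difference of the members was not tested.

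A few members did not follow the others. Over the 15 sections of E5.75 from section 3 on, the level of a member correlated with the median of all members by a median r of 0.81 over the 76 members with a mean of at least 4, and by over 0.5 in 67. It was below 0 in 5: Rplp2 (-0.63), Rps21 (-0.33), Rps12 (-0.32), Rpl38 (-0.17) and Rplp1 (-0.17). At E5.5, over 7 sections, it was below 0 for Rpsa (-0.80), Rps12 (-0.68), Rpl39l (-0.55), Rpl39 (-0.32) and Rpl41 (-0.31). At E5.25, over 5 sections, it was below 0 for 8 members, among them Rps12 (-0.91), Rplp2 (-0.83), Rps21 (-0.56) and Rplp1 (-0.29). Those 5 sections include the poor section 4, where 2046 genes reached an FPKM of 1. Rps12, a protein of the small subunit head, was below 0 in all 3 stages. The r values describe sections of 1 embryo that share depth and scaling, and each member is itself part of the median.

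**Figure D3:**
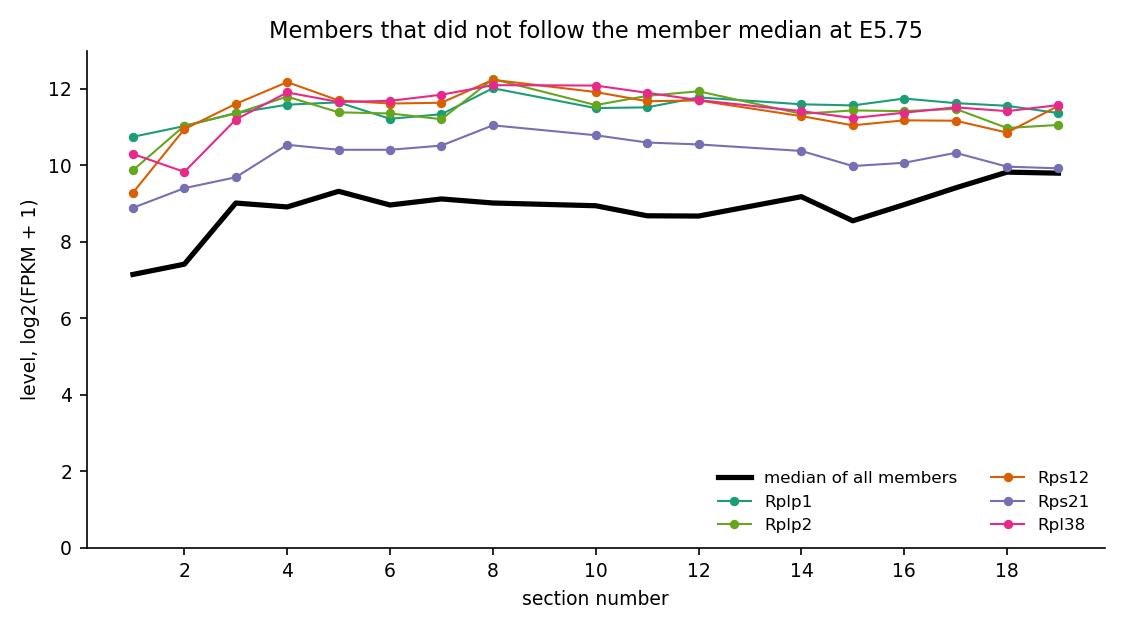
Level, log2(FPKM + 1), of 5 members that did not follow the median of all members at E5.75 (coloured lines), with that median in black, by section number. The median climbs from section 15 to sections 18 and 19, while Rplp1, Rplp2, Rps12 and Rpl38 stay between 10.9 and 12.3 from section 3 on.

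Rps12 stood between 11.6 and 12.2 in sections 3 to 8, between 11.05 and 11.9 in sections 10 to 16 and at 11.2, 10.9 and 11.6 in sections 17 to 19. Rplp2 stood between 11.2 and 12.3, then between 11.35 and 11.9, and at 11.48, 10.98 and 11.06 in the last 3. Rps21, a small subunit protein, stood between 9.69 and 11.05, between 9.98 and 10.8, and at 10.3, 9.97 and 9.93. In each of these 3 genes the spans overlap. The mean of sections 17 to 19 minus that of 10 to 16 was -0.42 for Rplp2, -0.32 for Rps21, -0.28 for Rps12, -0.11 for Rpl38 and -0.10 for Rplp1, and with Rpl10l (-0.97) these were the 6 members in which it was not above 0. Rplp1, Rpl38, Rps12 and Rplp2 were also among the 5 members of highest mean level; the other, Rpl41, did follow the median (r = 0.81).

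Paralogues were set against their parent genes within each section, which removes what both share in a library only where both are well above 0. Where a paralogue is listed at 0, the difference is minus the level of the parent. The slope of the difference along section number was tested by permuting the section numbers (2-sided, exact for 7 and 9 sections, 100000 resamples for 17), with Benjamini-Hochberg adjustment over 21 tests of 7 pairs. Rpl10l, an intronless copy of the X-linked Rpl10 that replaces it in male meiosis, moved against its parent at E5.75, with a slope of -4.82 (permutation test, adjusted p = 0.0021). Rpl10l stood at 4.998, 1.65, 3.95, 3.81, 3.49 and 4.66 in sections 3 to 8, at 1.40 in section 10, and then at 0 in every later section but 14 (2.16) and 16 (2.26). Rpl10 stood between 7.92 and 9.09 in sections 3 to 8 and rose to 10.1 in section 19. The line fits of the single genes gave -3.04 for Rpl10l and 1.78 for Rpl10. The slope was past the threshold in all 20 alternatives run, between -7.27 and -3.31, and was -5.03 without sections 1 and 2. The limma call of Rpl10l alone was less firm and passed in 12 of 26 alternatives, with adjusted p from 0.0042 to 0.10.

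At E5.25 Rpl10l was listed at 0 in 5 of 7 sections, with 0.90 in section 6 and 2.96 in section 7, and at E5.5 at 0 in 6 of 9. The slope of its difference to Rpl10 was -1.69 at E5.25 (exact permutation, adjusted p = 0.38) and -3.54 at E5.5 (adjusted p = 0.11). At E5.5 it passed with a pseudocount of 5 (-3.66, exact permutation, adjusted p = 0.020), and it was 0.16 without sections 1 and 2 (-0.78 at E5.25). With all sections of E5.5, the fitted change was 0.43 for Rpl10l and 3.965 for Rpl10, so that slope is mostly the rise of the parent. Whether the slopes differ between stages was not tested, since the tables were normalized separately. At these low levels a 0 may be a missed transcript, and how reads shared between Rpl10l and Rpl10 were assigned is not given in the sources used here.

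**Figure D4:**
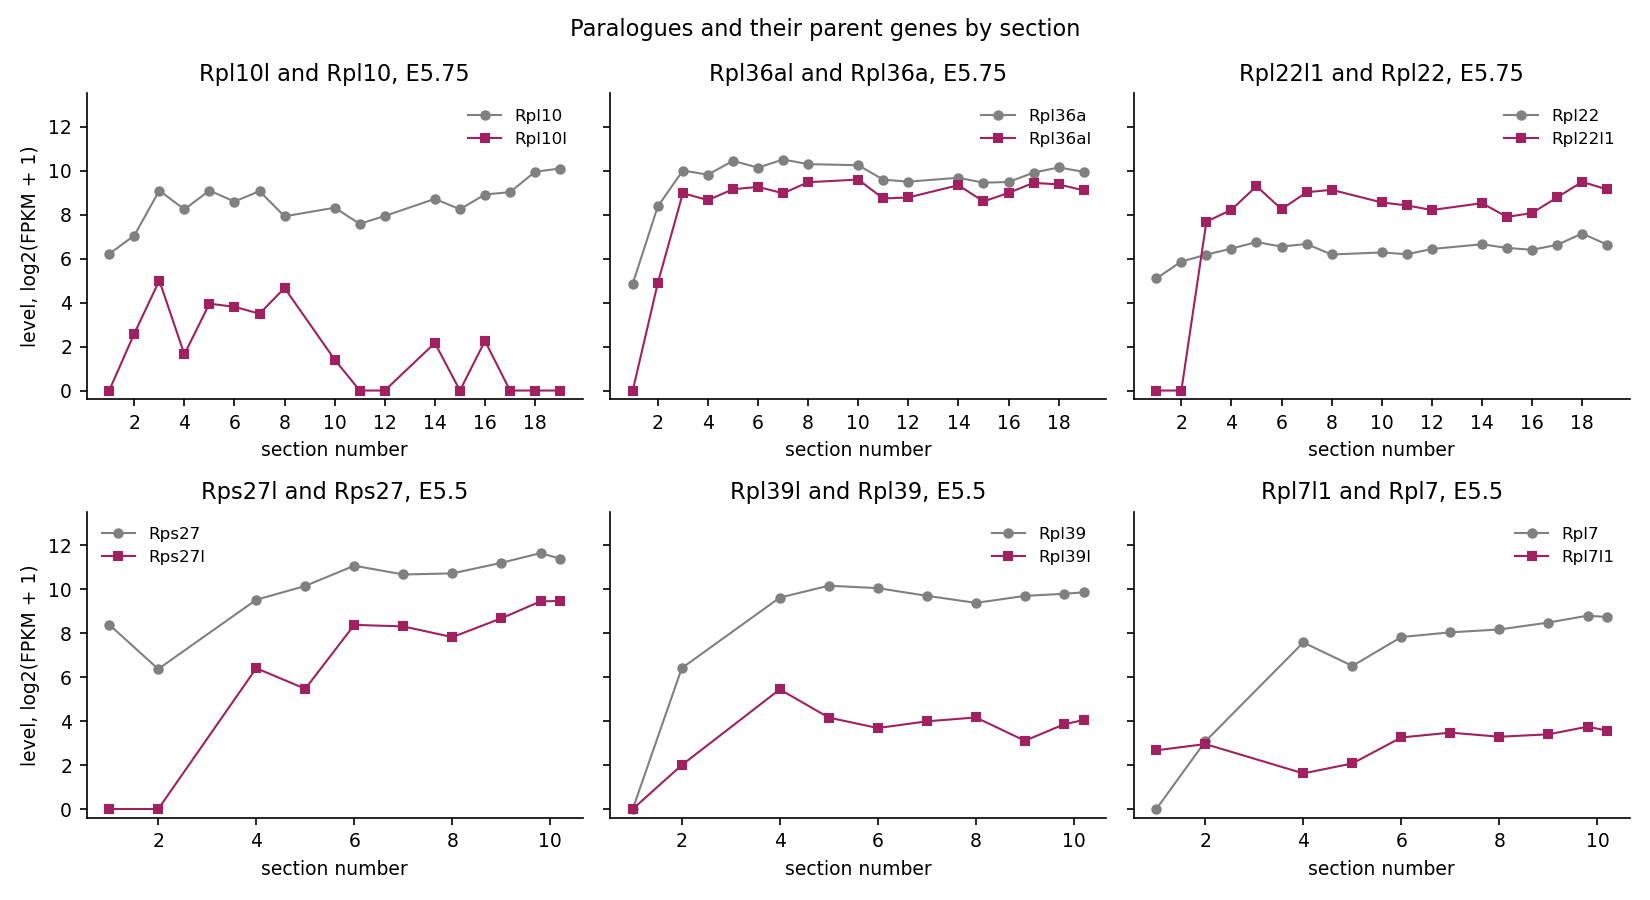
Level, log2(FPKM + 1), of 6 paralogues (squares) and their parent genes (circles) by section number, at E5.75 (top row) and E5.5 (bottom row); the 2 columns of E5.5 section 10 are drawn side by side. Rpl10l is above 0 in all of sections 2 to 10 and at 0 in sections 17 to 19, while Rpl10 is highest in sections 18 and 19; Rpl22l1 lies above Rpl22 in every E5.75 section but 1 and 2.

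Rpl22l1, which can take the place of Rpl22 in the large subunit, was the more abundant of the pair. It was above Rpl22 in 15 of 17 sections of E5.75, 7 of 9 of E5.5 and 6 of 7 of E5.25, with a median difference of 1.87, 1.84 and 2.91. The exceptions at E5.75 and E5.5 were sections 1 and 2, where it was listed at 0. The slope of its difference to Rpl22 at E5.75 was 4.13 (permutation test, adjusted p = 0.044), but 0.09 without sections 1 and 2 (adjusted p = 0.93). It was also past the threshold in only 9 of 20 alternatives.

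Rpl36al lay below its X-linked parent Rpl36a in all 17 sections of E5.75, by a median of 0.85, and closed on it along the section numbers, with a slope of 2.30 (permutation test, adjusted p = 0.0021). The slope was 0.61 without sections 1 and 2 (adjusted p = 0.094) and past the threshold in the other 19 of 20 alternatives. At E5.5, Rps27l closed on Rps27 with a slope of 5.54 (exact permutation, adjusted p = 0.0046), which was 1.56 without sections 1 and 2 (adjusted p = 0.35). Rps27l lay below Rps27 in every section of all stages.

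Rpl39l and Rpl7l1 fell behind their parents at E5.5, with slopes of -4.43 (exact permutation, adjusted p = 0.030) and -6.39 (exact permutation, adjusted p = 0.044). Both parents were listed at 0 in section 1, and without sections 1 and 2 the slopes were -1.09 (adjusted p = 0.64) and 0.20 (adjusted p = 0.93). Rpl39l stood between 3.10 and 5.44 from section 4 on, against 9.37 to 10.1 for Rpl39. The other 15 of the 21 slopes did not pass, among them all 7 at E5.25 and all 3 of Rps4y2 against Rps4x. Rpl7l1 is known as a factor of ribosome assembly more than as a subunit of the finished ribosome.

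The VE libraries of E5.75 were set against the libraries of the same sections without that label, 2 against 2. Both VE libraries are poor: 1496 and 2147 genes reached an FPKM of 1, against 7556 and 7385 in the other libraries, and Rn45s took 62.2% and 48.8% of the summed FPKM. Their label is borne out unevenly. The 18 VE markers summed to 662.1 and 1841 FPKM, against 80.3 and 60.5 in the other libraries, with 10 and 8 of them at 0. In the library of section 7, Amn (7.71), Ttr (6.44), Apoa1 (7.01) and Apoe (9.22) were high. Afp, Hnf4a, Gata4, Gata6 and Foxa2 were at 0 there, and Cubn stood at 0.71. Pou5f1, a gene of the epiblast, stood at 6.73 in it, close to the 6.95 of the other library. In the library of section 6, Amn, Ttr, Afp and Hnf4a were at 0, Apoe stood at 7.99 and Gata6 at 5.12, the epiblast gene Dnmt3b stood at 7.58 (8.33 in the other library) with Pou5f1 at 0, and the haemoglobin row Hba-a1Hba-a2 stood at 12.1, against 0.63 in the other library.

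The 2 VE libraries lay apart by over 1 in 56 of 80 members, against 2 for the other libraries. Between them the median absolute gap of a member was 2.20, against 0.19 between the other libraries of sections 6 and 7. They lay apart by over 3 in 30 of 80 members, against 0 for the other libraries. In 4 members (Rpl39l, Rpl3l, Rpl7l1 and Rps4y2) both VE libraries were listed at 0, and in 17 members 1 of them was, such as Rps27, Rpl9 and Rpl7 at 0 in section 6, and Rpl15 and Rps15a at 0 in section 7. Shares over all genes were not computed for these gaps and zeros, so they are not read as a trait of the members. Of 71 genes for mitochondrial ribosomal proteins, 63 and 54 were listed at 0 in the VE libraries of sections 6 and 7. In the other libraries 3 and 1 were. The large minus small subunit median was -1.30 and -0.32 in the VE libraries and -0.58 and -0.50 in the other libraries. The members made up 16.6% and 25.8% of the summed FPKM without Rn45s in VE, against 26.8% and 29.4%.

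**Figure D5:**
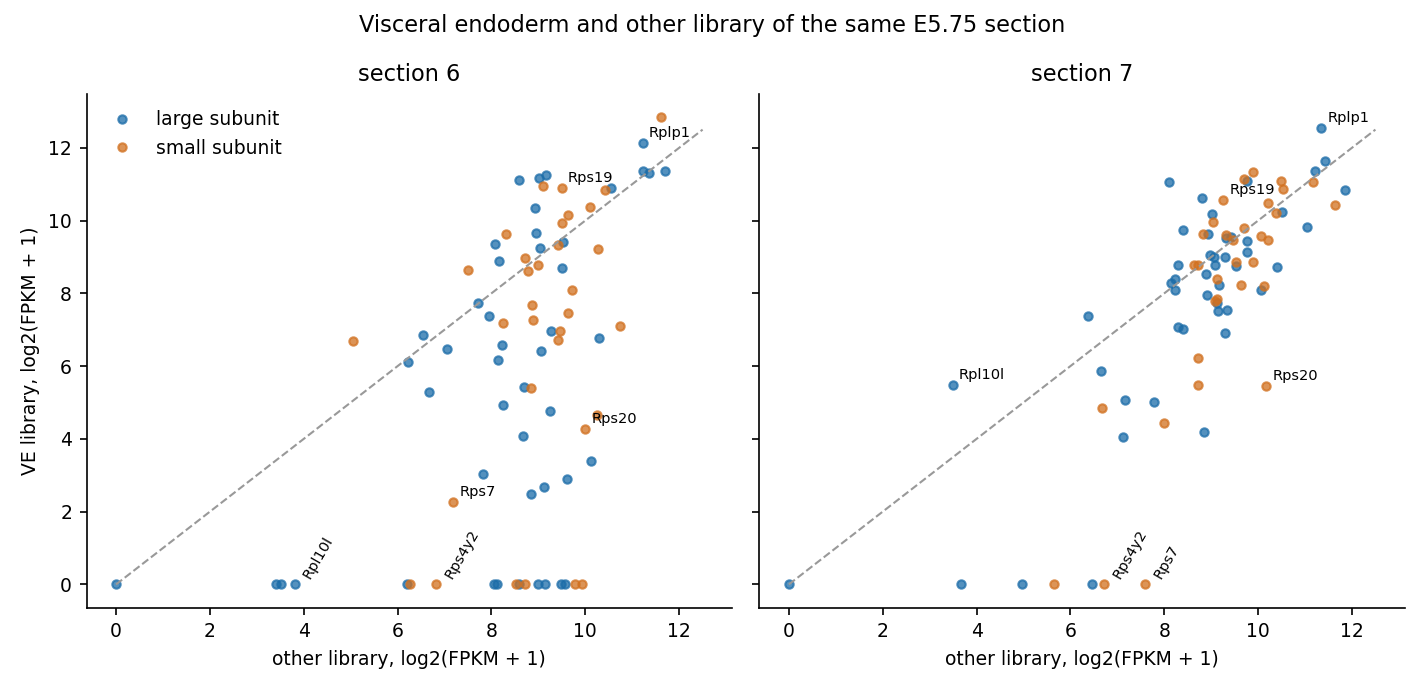
Level, log2(FPKM + 1), of each member in the VE library (vertical axis) against the other library of the same E5.75 section (horizontal axis), for section 6 (left) and section 7 (right); the dashed line marks equal levels, and large and small subunit members are blue and orange. The points of section 6 spread far below the line, down to 0, while those of section 7 lie closer to it, with Rplp1 and Rps19 above it in both.

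Of 79 members tested, 2 were higher and 7 lower in VE past an adjusted p of 0.05 (limma), where 0.624% of all 6413 genes tested were higher and 56.6% lower. The median difference was -1.22 for the members, -1.59 for large and -0.95 for small subunit genes, and -2.09 for all genes tested. In VE, Rps19, mutated in Diamond-Blackfan anaemia, stood at 10.9 and 10.6, against 9.5 and 9.259 in the other libraries, a difference of 1.35 ± 0.25 (SE, adjusted p = 0.024 by limma). Rplp1 stood at 12.12 and 12.55 against 11.2 and 11.3, a difference of 1.06 ± 0.19 (adjusted p = 0.021 by limma). Under common scaling without Rn45s the difference of Rplp1 was 0.69 and no longer passed (adjusted p = 0.17), and with section as a replicate block that of Rps19 did not (adjusted p = 0.054).

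Lower in VE were Rps4y2 (-6.77), Rps7 (-6.25), Rps20 (-5.23 ± 0.76 SE), Rpl39l (-4.24), Rpl24 (-3.96), Rpl7l1 (-3.54) and Rplp0 (-2.35), the base of the ribosomal stalk. Rps20 stood at 4.27 and 5.45 in VE against 9.99 and 10.2. Rps7 stood at 2.27 and 0 against 7.18 and 7.60. Rplp0 stood at 6.97 and 6.90 against 9.27 and 9.30, while Rplp2, the other stalk protein beside Rplp1, stood at 11.31 and 11.37 against 11.36 and 11.21, a difference of 0.05 that did not pass. Of the members that passed, Rps4y2, Rpl39l and Rpl7l1 were listed at 0 in both VE libraries, and Rps7 in that of section 7. Values at 0 in both VE libraries show no spread, and each 0 may be a missed transcript. Differences as large in Rps6 (-5.88), Rps27 (-5.86) and Rpl23a (-5.73) did not pass, and each was listed at 0 in 1 VE library. Rpl36 (1.43), Rpl10 (1.23), Rpl7a (1.14) and Rpl27a (1.04) were the largest upward differences that did not pass.

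The VE calls depended on the libraries. With section as a replicate block, 1 member was higher and 4 were lower, beside 15 and 3785 of all 6413 genes tested. Against all of sections 3 to 8, 1 was higher and 21 lower (26.6%), beside 25.1% of all genes lower. Without the VE library of section 6, 15 were higher and 35 lower, beside 11.4% and 73.7% of all genes. Without that of section 7, 12 were higher and 47 lower, beside 8.98% and 82.0%. Without the other library of section 6, or without that of section 7, 0 of 76 members tested passed either way (limma; 0 at an unadjusted p under 0.05 too), and with quantile normalization 0 passed (limma), with 0 higher and 9 lower at an unadjusted p under 0.05. These fits with 1 library on a side assume that it varies like the others. With quantile normalization, 0 of all 6413 genes tested passed either way, and at an unadjusted p under 0.05 (limma) 687 were higher and 602 lower. The part of RNA quality, blood or other cells in these differences was not tested.

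Paralogues in VE showed the same unevenness. Rpl10l was at 0 in the VE library of section 6 and at 5.47 in that of section 7, against 3.81 and 3.49. Rpl22l1 stood at 4.94 and 10.2 in VE against 8.24 and 9.01, and Rpl36al at 4.77 and 9.07 against 9.26 and 8.97.

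Other genes of the translation machinery were taken from lists. Of the elongation factors, which move the ribosome along the mRNA, 1 of 7 rose at E5.25, 5 of 7 at E5.5 and 1 of 7 at E5.75 (limma, adjusted p under 0.05), and 0 fell. The elongation gene that rose at E5.25 and E5.75 was Eef1e1 (7.54 and 4.18), known as a partner of the aminoacyl-tRNA synthetases more than as a factor that moves the ribosome. Of the initiation factors 0 of 29 rose at E5.25, 22 of 28 at E5.5, such as Eif3h (5.80), and 6 of 29 at E5.75, such as Eif2s1 (3.46). Of the ribosome assembly genes 0 of 29, 13 of 29 and 6 of 29 rose, with Fbl, the methyltransferase of ribosomal RNA, at 6.36 at E5.5 and Ltv1 at 3.83 at E5.75. Of other mRNAs known for a TOP motif 0 of 5, 4 of 6 and 0 of 6 rose, with Tpt1 at 5.03 at E5.5. The median changes at E5.5 were 4.50, 3.82, 1.97 and 2.75 for these 4 lists, beside 3.59 for the members and 1.22 for all genes. Of the regulators of ribosome production, 0 of 10, 3 of 10 and 5 of 12 rose, with Mycn at 4.34 at E5.5 and 4.32 at E5.75. In none of these 5 lists did a gene fall in any stage with all sections. The counts stand beside 0.378%, 28.3% and 18.9% of all genes rising at the 3 stages, so at E5.75 those of the initiation and assembly genes are near the background. Without sections 1 and 2 of E5.5, 1 of 7 elongation, 1 of 28 initiation, 2 of 29 assembly, 0 of 6 other TOP and 1 of 9 regulator genes rose. At E5.75 they were then 1 of 7, 2 of 29 (1 fell), 1 of 29, 0 of 6 and 2 of 12, and at E5.25 1 elongation gene. Of the ribosomal protein genes outside the symbol rule, Fau rose at E5.5 by 2.30 (adjusted p = 0.023 by limma) with all sections, and none passed without sections 1 and 2. In VE, 2 of 7 elongation, 12 of 29 initiation, 13 of 28 assembly, 1 of 5 other TOP and 6 of 9 regulator genes were lower and 0 higher, where 56.6% of all genes tested were lower.

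Cell type lists moved along the sections too. At E5.5, where 58 members rose, 7 of 11 ectoplacental cone and 5 of 11 extraembryonic ectoderm markers rose (median changes 3.32 and 2.71), and 0 of 11 epiblast markers passed. Without sections 1 and 2 of E5.5, 4 of 11 and 3 of 10 rose and 4 of 10 epiblast markers fell. The following counts are for E5.75. Of the epiblast markers 9 of 12 fell and 0 rose. Of the extraembryonic ectoderm markers 7 of 11 rose and 1 fell, and of the ectoplacental cone markers 11 of 12 rose and 0 fell. Of the VE, decidua and blood markers 1 of 16, 4 of 8 and 1 of 2 rose and 0 fell. Among 5 genes that track RNA quality, Rn45s and Lars2 fell at E5.25 (-5.40 and -7.43), and they fell with Malat1 at E5.5 (-5.45, -5.75 and -3.97), where the other 2 rose, Actb by 2.93. Actb also rose at E5.75 (1.56), where none fell. The part of these cell types and of RNA quality in the rise of the members was not tested.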

How the data were processed

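Laser-captured tissue of mouse embryos went through Smart-seq2, per the labels' protocols. Of tools and builds, TopHat2 2.0.4, mm10 and Cufflinks 2.0.2 are given, with no roles, per the submitters' processing notes; the annotation and the normalization are not given in the sources used here. The authors deposited 1 table per stage of FPKM on a log2 scale, read as log2(FPKM + 1) from table names and values. At E5.5, parts A and B of a section have 1 joined column (how they were joined is not stated), except section 10, whose 2 columns were averaged; the source name of the second gives section 11. E5.75 sections 9 and 13 were not analysed here. All value columns were used.

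A gene entered a test if 2 or more of the samples in it reached an FPKM of 1. The test was limma 3.58.1 under R 4.3.3 (2-sided, eBayes with a trend), with Benjamini-Hochberg adjustment over all genes and a threshold of 0.05, per stage as a line in section number scaled from 0 to 1, and for VE as 2 against 2. Rpl10l at E5.25 and Rpl3l at E5.5 and E5.75 did not pass the filter. Paralogue slopes were tested by permutation. Scripts were tested on simulated data. Named were, per stage and in VE, the 6 largest changes each way, the 6 highest and 4 lowest members at E5.75, the pairs, members that fell, and leading genes of each list. Other genes named (such as Rps3, Rpl15, Rps21) were chosen after their values were seen. Some genes that the rule would name are not reported here. The members and lists were chosen with earlier results of these data known. Promoter sequences are from RefSeq, build GRCm38.p6, and transcript lengths and processed copies from GENCODE. Alternatives were pseudocounts, filters, scalings, a covariate, sections left out and a block. Python 3.11.15 and matplotlib 3.10.9 drew the figures.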

Additional observations from a re-analysis of the deposited data

Results flagged for a closer look

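Over the 7 sections of E5.25, 30 values (summary measures and named members) were examined for a section far from the others, and 7 stood apart. Some members were named for their large changes along these sections, so the usual chance rate of about 1 in 20 does not apply. The sections are positions, not replicates. Section 1 stood apart for Rps6, Rpl4, Rps27l and Rpl36a, each listed at 0 there and above 5 in the other sections. Section 2 stood apart for Rpl22l1, listed at 0, and for Rps4x, at 5.31. Section 3 stood apart for Rps3, at 4.18, against 6.15 to 6.99 in the other sections.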

How the results depend on the processing

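Sections are positions, depth is unknown, and the tables hold no counts, so a 0 may be a missed transcript. Of the values computed again for single genes and pairs (125 results), 1945 kept direction and side of the threshold, 164 no longer passed, 78 newly passed and 15 reversed. Alternatives chosen after seeing the data were the E5.25 fit without sections 1 and 2, the spans of E5.75, the lists without sections 1 and 2 and the subunit gap without paralogues.

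Members that rose at E5.25 (1) numbered 15 with a pseudocount of 0.1, 16 with a filter at FPKM 5, and 0 with a pseudocount of 5, no filter, quantile normalization, detected genes as a covariate or without sections 1 and 2; leaving out 1 section gave 0 to 12. With a pseudocount of 5, no filter, quantile normalization or the covariate, 0 of all genes rose too. The median change of the members was 0.57 without sections 1 and 2, and 1.33 to 2.46 with 1 section left out. At E5.5 (58 rose) the count was 35 with a common sum, 29 with quantile normalization (1 fell), 0 with the covariate and 20 without sections 1 and 2, and 52 to 60 with 1 section left out. Of all genes, 1273 of 8491 rose with the common sum, 578 of 8251 with quantile normalization and 0 of 8251 with the covariate. The median of the members was 2.35 with quantile normalization, 0.66 with the covariate and 0.97 without sections 1 and 2. It was 2.47 to 3.85 with 1 left out. At E5.75 (22 rose, 1 fell) 7 rose with a common sum, 7 with quantile normalization, 0 with the covariate, 14 without the eBayes trend and 2 without sections 1 and 2, where 2 fell, and 8 to 29 with 1 section left out. Of all genes, 1430 of 11083 rose there with the common sum and 698 of 11149 with quantile normalization. With the covariate 405 of 11149 rose, and without the trend 2136 of 11149. At E5.75, 0 members fell with a pseudocount of 5 or no filter, and 0 to 1 with 1 section left out. The median was 0.18 with the covariate and 0.41 without sections 1 and 2, and 0.69 to 1.44 with 1 left out.

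In VE (2 higher, 7 lower), section as a replicate block gave 1 higher and 4 lower. The section numbers are shared positions. The deviations of the 2 libraries of section 6 correlated by r = 0.00077 over 6413 genes. With 2 poor VE libraries this value cannot tell whether the sections are paired, so both fits are given. Against sections 3 to 8, 1 was higher and 21 lower. With a common sum 1 was higher, and with no filter 0. With quantile normalization 0 were higher and 0 lower, as for all 6413 genes tested. With 1 library left out, 0 to 15 were higher, 0 to 47 lower and the median was -1.68 to -0.31. By means, the large minus small difference at E5.75 was -0.74. The count with sections 17 to 19 above 10 to 16 (46) was 25 with a common sum, 14 with quantile normalization and 46 to 58 with 1 late section left out. The share of all genes was 5.74% with all 3 late sections. It was 10.2% without section 17, 7.37% without section 18 and 9.1% without section 19.

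Among named results that passed in either fit, signs turned at E5.5 with the covariate for Rps28 (-2.66), Rpl32 (-0.98), Rpl22 (-2.08), Rpl39 (-3.77), Rps4x (-4.05) and Rps4y2 (-0.13), and without sections 1 and 2 for Rpl39 (-0.21), Rps4x (-0.066) and Rpl7l1 minus Rpl7 (0.20). At E5.75 they turned with the covariate for Rpl36al (-0.87) and Rpl22l1 (-1.15), and without sections 1 and 2 for Rps12 (-0.82). Over all members, passed or not, the sign turned with the covariate in 6 of 79 at E5.25, 30 of 80 at E5.5 and 28 of 79 at E5.75, and without sections 1 and 2 in 14, 6 and 12. In VE, leaving out 1 library gave -3.69 to 1.55 for Rpl22l1, -9.66 to 1.42 for Rpl39 and -3.65 to 1.83 for Rpl10l, which turned without the VE library of section 6. The cause of these changes was not tested.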
